A study of Mus musculus with 18 samples.

Results

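The kinesin motor family was examined in whole testis of repro9/repro9 mutant mice and wild-type (wt) mice before puberty. The repro9 mutation lies in Mybl1. Members were the genes whose symbol is Kif followed by a number and optional letters, without Kif3a and Kif3b. The array held 35 such genes among 18193 genes with a probe set of their own. Each gene was represented by the probe set annotated to it alone that had the highest mean log2 signal over all 18 arrays. The 35 genes had 91 such probe sets, and 23 of the genes had more than 1. In 32 genes the chosen probe set passed the filter on low signal, which asked for a signal above the array's own 40th percentile on at least 3 arrays. The other 3, Kif14, Kif2b and Kif28, did not pass and were not tested.

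The 4 groups were repro9/repro9 mutants at 17 days postpartum (dpp; 5 arrays), wt mice at 17 dpp (5 arrays), repro9/repro9 mutants at 14 dpp (5 arrays) and wt mice at 14 dpp (3 arrays). All mice were raised under the same ordinary conditions per the labels, and no treatment is named. The protein of Mybl1 is A-MYB, which drives transcription in spermatocytes. Signals are MAS5 values on a linear scale, 1 per probe set and array. The labels do not tie arrays to separate animals, so p-values measure the spread between these samples, which may be technical.

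Kinesins are motor proteins that use ATP to move along microtubules or to take their ends apart. One group builds the spindle, moves chromosomes and completes cytokinesis in dividing cells. Another carries vesicles, mitochondria and other cargo through the cytoplasm, and a smaller group acts at cilia, centrioles and the sperm flagellum. Spermatocytes need spindle motors for the meiotic divisions, and spermatids need microtubule motors to shape the head and build the tail.

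The family was divided by textbook role into 13 mitotic kinesins (11 tested), 11 transport kinesins (11 tested), 5 cilium kinesins (5 tested) and 6 others (5 tested). The arrays fell into 3 sets by the ratio of the β-actin 3' to 5' control signals, a measure of how far the labelled RNA extends towards the 5' end. Set 1 held 7 arrays with ratios of 2.31 to 2.92, namely 2 mutants and 1 wt at 17 dpp and 2 mutants and 2 wt at 14 dpp. Set 2 held 4 arrays with ratios of 1.45 to 1.49, all of 14 dpp, 3 from mutants and 1 from wt. Set 3 held 7 arrays with ratios of 103 to 125, all of 17 dpp, 3 from mutants and 4 from wt. The mean signal of an array without its lowest and highest 2% of values was 392.5 to 393 in set 3 and 497.9 to 498.5 in sets 1 and 2. Genotype differences at 17 dpp are therefore given beside those of the fit that takes array set as a block. Ages can be compared on like arrays in set 1 only.

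The promoters of 5 members are shown first, because A-MYB binds DNA. Kif9, Kif6, Kif27 and Kif2a had the 4 largest differences at 17 dpp among the tested kinesins, and Kif20b is shown for a second motif. Each window runs from 250 bases before to 50 bases after an annotated start (RefSeq, GRCm38.p6), 300 bases in the gene's own direction. In the first 4, capitals mark the MYB core, searched as AACGG or AACTG on both strands (CCGTT and CAGTT on the other strand). The window of Kif9 (chr9:110476708-110477007, plus strand) held 1 match, 59 bases before the start. The window of Kif2a (chr13:107022306-107022605, minus strand) held 3 matches, beginning 189, 183 and 177 bases before the start. The window of Kif27 (chr13:58354898-58355197, minus strand) held 1 match, 27 bases before the start. A second annotated Kif2a window held 1 match, and a second Kif9 window that overlaps the first held the same match. The window of Kif6 (chr17:49614922-49615221, plus strand) held none. In Kif20b (chr19:34922108-34922407, plus strand) capitals mark a cell cycle element, searched as TTTGAA or TTCGAA on both strands (TTCAAA on the other strand, TTCGAA being its own reverse), which occurred at 7 and 13 bases after the start. The Kif27 window held 3 matches to this element as well, 191, 89 and 73 bases before the start, which are not in capitals.
Kif9: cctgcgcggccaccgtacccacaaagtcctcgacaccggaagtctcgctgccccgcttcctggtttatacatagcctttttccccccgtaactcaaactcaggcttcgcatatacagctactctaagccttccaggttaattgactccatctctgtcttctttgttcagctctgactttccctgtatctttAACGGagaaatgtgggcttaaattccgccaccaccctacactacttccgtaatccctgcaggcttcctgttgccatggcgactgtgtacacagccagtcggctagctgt
Kif2a: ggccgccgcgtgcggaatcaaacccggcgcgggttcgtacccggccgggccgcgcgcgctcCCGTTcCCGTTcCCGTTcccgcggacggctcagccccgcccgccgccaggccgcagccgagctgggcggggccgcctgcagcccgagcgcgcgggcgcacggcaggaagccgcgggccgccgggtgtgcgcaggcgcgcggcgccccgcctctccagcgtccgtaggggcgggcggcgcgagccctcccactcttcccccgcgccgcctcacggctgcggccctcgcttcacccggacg
Kif27: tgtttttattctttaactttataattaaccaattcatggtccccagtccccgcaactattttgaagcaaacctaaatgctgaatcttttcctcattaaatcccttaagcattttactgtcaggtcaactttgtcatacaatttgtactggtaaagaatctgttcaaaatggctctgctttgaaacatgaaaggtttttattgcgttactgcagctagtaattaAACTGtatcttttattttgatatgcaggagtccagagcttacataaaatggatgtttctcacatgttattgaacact
Kif6: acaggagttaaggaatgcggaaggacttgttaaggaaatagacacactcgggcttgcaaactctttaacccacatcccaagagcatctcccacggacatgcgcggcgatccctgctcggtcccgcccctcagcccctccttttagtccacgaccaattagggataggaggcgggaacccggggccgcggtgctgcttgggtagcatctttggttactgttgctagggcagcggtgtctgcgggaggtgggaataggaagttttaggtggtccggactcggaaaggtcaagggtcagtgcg
Kif20b: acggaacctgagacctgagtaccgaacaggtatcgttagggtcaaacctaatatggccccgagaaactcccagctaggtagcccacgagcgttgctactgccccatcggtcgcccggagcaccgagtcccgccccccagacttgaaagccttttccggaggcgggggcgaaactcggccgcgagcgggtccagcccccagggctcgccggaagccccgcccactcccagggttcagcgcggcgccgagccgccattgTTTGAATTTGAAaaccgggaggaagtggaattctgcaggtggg

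Windows were found for 29 of the kinesins (33 windows). At least 1 MYB core lay in 60.6% of the 33 kinesin windows, against 55.1% of all 32841 promoter windows. It lay in 8 of 13 windows of mitotic kinesins, 5 of 10 of transport kinesins and 5 of 6 of cilium kinesins. Some genes had more than 1 window, and by gene the core lay in 7 of 12 mitotic, 4 of 8 transport and 4 of 5 cilium kinesins. The cell cycle element, which is known from promoters of genes expressed late in the cell cycle, lay in 9 of 13 windows of mitotic kinesins, 1 of 10 of transport kinesins and 2 of 6 of cilium kinesins, against 19.2% of all windows. CCAAT, a common promoter box, lay in 7 of 13 mitotic, 2 of 10 transport and 3 of 6 cilium windows, against 37.4% of all. The 2 transport windows belonged to 1 gene, Kif1b. A match describes letters and is not a binding site.

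At 17 dpp 2 of the 32 tested kinesins passed the test between mutant and wt testes, and both were lower in mutants. They were Kif9, a kinesin of motile cilia and the sperm flagellum, by 2.25 ± 0.49 on the log2 scale (4.74-fold lower, limma adjusted p = 0.00904), and Kif2a, a kinesin that takes microtubule ends apart, by 0.93 ± 0.23 (adjusted p = 0.0195). The ± after a difference gives limma's standard error. Over all 34764 tested probe sets 5.33% were called at an adjusted p under 0.05, of which 3.86% were lower and 1.48% higher. Of the 1854 probe sets called, 513 were higher, against 321 of 1814 after quantile normalization and 114 of 1455 after subtraction of each array's median. None of the 11 transport kinesins and none of the 5 others passed. At an unadjusted p under 0.05 the count was 9 of 32, against 19.4% of all probe sets. Over all arrays of 17 dpp no kinesin had groups that did not overlap, which 3.31% of all probe sets had with mutants lower and 1.54% with mutants higher. In whole testis fewer cells of a type and less RNA per cell cannot be told apart.

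Kif9 lies on chromosome 9 and had 1 probe set. In mutants at 17 dpp its signal was 169 and 192 on the set 1 arrays and 47.7, 51.5 and 94.2 on the set 3 arrays. In wt at 17 dpp it was 1502 on the set 1 array and 487, 294, 175 and 479 on the set 3 arrays. The mutant arrays of set 1 overlapped the lowest wt arrays of set 3, but within each set every mutant array was below every wt array. The share of all probe sets separated within a set was not worked out, here or for the genes below. Set 1 has 1 wt array of 17 dpp, so separation there is weak evidence. At 14 dpp mutants had 153, 150, 178, 178 and 143, and wt had 196, 226 and 371. All 5 mutant arrays were below all 3 wt arrays there, yet the difference of −0.67 ± 0.57 did not pass (adjusted p = 1). In the block fit the 17 dpp difference was −2.61 ± 0.30 (limma adjusted p = 7.63e-06), within set 1 it was −3.06 and within set 3 −2.43. Of 32 alternative settings, 31 kept the call at 17 dpp.

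**Figure D1:**
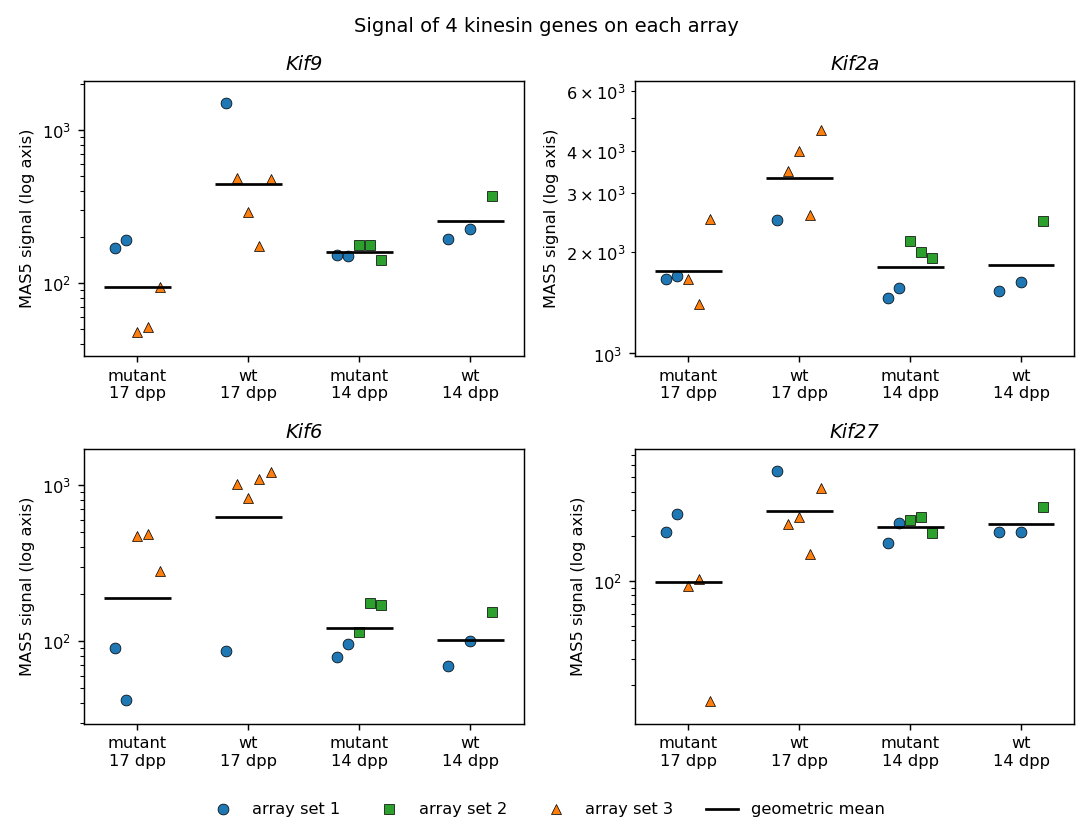
MAS5 signal on a log axis for Kif9, Kif2a, Kif6 and Kif27 on each of the 18 arrays, by group (mutant left of wt, 17 dpp left of 14 dpp). Point shape and colour give the array set and bars give geometric means. Kif9 at 17 dpp lies at 47.7 to 192 in mutants and 175 to 1502 in wt, and Kif6 is at 86.7 on the set 1 wt array of 17 dpp and at 828 to 1222 on the set 3 wt arrays.

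Kif2a lies on chromosome 13 and had 5 probe sets. In mutants at 17 dpp its signal was 1666 and 1697 on set 1 and 1666, 1405 and 2499 on set 3. On the wt arrays of 17 dpp it was 2488 on set 1 and 3470, 3985, 2583 and 4600 on set 3. Only the highest mutant array, at 2499, overlapped the lowest wt array, at 2488, and within each set the groups did not overlap. At 14 dpp mutants had 1458, 1568, 2163, 2001 and 1915, and wt had 1533, 1630 and 2468, which overlapped (difference −0.03 ± 0.26). The block value at 17 dpp was −0.87 ± 0.17 (limma adjusted p = 0.00167). Within set 3 it was −0.99 (adjusted p = 0.00607) and within set 1 −0.57 (adjusted p = 0.574). The call was lost without wt replicate 3 (−0.86, adjusted p = 0.0601) or wt replicate 5 (−0.81, adjusted p = 0.0724) of 17 dpp, and after quantile normalization (−0.84, adjusted p = 0.0603). It was also lost without the set 3 arrays (−0.57, adjusted p = 0.329), with arrays of that age only (−0.93, adjusted p = 0.111) and with the mean of the gene's probe sets (−0.61, adjusted p = 0.234). The other Kif2a probe sets that could be tested read −0.11, −1.26 and −0.53, and none of those passed without the block. In the block fit the probe set at −1.26 read −1.35 and passed (adjusted p = 0.0093).

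With the array set as a block 9 of the 32 kinesins passed at 17 dpp, 7 lower and 2 higher in mutants, against 18.8% of all probe sets (8.05% lower and 10.8% higher). Besides Kif9 and Kif2a these were Kif27, Kif6, Kif24, Kif2c and Kif20b, which were lower, and Kif21a and Kif1c, which were higher. Apart from Kif20b these further genes are described by array because they passed in this fit, a choice made after their values were seen. For genes chosen in this way, separation within an array set is not separate support. Within set 3 alone 6 kinesins passed (11.5% of all probe sets), and within set 1 only Kif9 did (2.85% of all probe sets).

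Of the 5 tested cilium kinesins 4 were lower with the block and 4 had a negative difference without it. Kif27, a relative of Kif7 that acts in the assembly of motile cilia, had signals of 213 and 282 on set 1 and 92.3, 103 and 15.6 on set 3 in mutants at 17 dpp. In wt of that age it had 553 on set 1 and 242, 269, 151 and 422 on set 3. Mutant and wt arrays did not overlap within a set, although they did across sets. At 14 dpp Kif27 spanned 179 to 268 in mutants and 213 to 313 in wt. The 17 dpp difference was −1.60 ± 0.57 (limma adjusted p = 0.124) and −1.96 ± 0.43 with the block (adjusted p = 0.00417). The mutant signal of 15.6 (replicate 5) lay below that array's 40th percentile of 65.7. Leaving out single arrays moved the difference without the block between −1.98 and −0.94, the latter without this array.

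Kif6, a kinesin needed by the ciliated lining of the brain ventricles, had 90.7 and 42.2 on set 1 and 470, 488 and 281 on set 3 in mutants at 17 dpp. In wt at 17 dpp it had 86.7 on set 1 and 1017, 828, 1097 and 1222 on set 3. The groups did not overlap within set 3, and within set 1 the wt array lay between the mutant arrays. At 14 dpp Kif6 spanned 79.5 to 175 in mutants and 69.7 to 155 in wt. Its 17 dpp difference was −1.73 ± 0.72 (limma adjusted p = 0.192) and −1.12 ± 0.27 with the block (adjusted p = 0.0083). The second Kif6 probe set, which was dimmer, read 0.14, or 0.35 with the block, and passed in neither.

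Kif24, which acts at centrioles and restrains cilium formation, had 550 and 552 on set 1 and 349, 197 and 286 on set 3 in mutants at 17 dpp. On the wt arrays of 17 dpp it had 815 on set 1 and 450, 462, 547 and 429 on set 3, so the groups did not overlap within a set. At 14 dpp the mutant arrays spanned 484 to 664 and the wt arrays 432 to 565. Its 17 dpp difference was −0.55 ± 0.29 (limma adjusted p = 0.307) and −0.73 ± 0.18 with the block (adjusted p = 0.00787). The other 2 Kif24 probe sets, both dimmer, read 0.35 and 0.09, or 0.33 and 0.02 with the block, and neither passed. Kif7, a regulator of Hedgehog signalling at the cilium tip, read 0.29 at 17 dpp and 0.07 with the block, and passed in neither.

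Among mitotic kinesins, Kif2c, which takes microtubules apart at centromeres, had 1144 and 1244 on set 1 and 1978, 2226 and 1235 on set 3 in mutants at 17 dpp. In wt of that age it had 1588 on set 1 and 2086, 2364, 3323 and 3401 on set 3. Within set 3 the groups overlapped between 2086 and 2226. At 14 dpp Kif2c spanned 1095 to 1164 in mutants and 1090 to 1329 in wt. Its difference of −0.70 ± 0.24 at 17 dpp did not pass (limma adjusted p = 0.105), and it passed with the block at −0.57 ± 0.17 (adjusted p = 0.0264) and without wt replicate 1 of 17 dpp at −0.86 (adjusted p = 0.0241). The other 3 Kif2c probe sets, all dimmer, read 0.15, −0.13 and 0.06, or −0.24, 0.38 and −0.33 with the block, and none of them passed.

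Kif20b, a kinesin of the central spindle and cytokinesis, had 1098 and 1068 on set 1 and 1724, 1540 and 2268 on set 3 in mutants at 17 dpp. In wt at 17 dpp it had 1514 on set 1 and 2368, 2758, 2036 and 2491 on set 3. The highest mutant array of set 3 lay above the lowest wt array. At 14 dpp mutants had 1439, 1438, 1175, 856 and 1148, and wt had 1686, 1595 and 1334. Its 17 dpp difference was −0.57 ± 0.24 (limma adjusted p = 0.203) and −0.42 ± 0.14 with the block (adjusted p = 0.0409). The other Kif20b probe set that could be tested read −0.74, or −0.02 with the block, and passed in neither.

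Kif22, a chromosome-bound kinesin that pushes chromosome arms away from the poles, did not pass in either fit. In mutants at 17 dpp it had 1763 and 2944 on set 1 and 7819, 9852 and 3201 on set 3. On the wt arrays of 17 dpp it had 1965 on set 1 and 4937, 5097, 7199 and 4930 on set 3. The groups overlapped within both sets, and the difference was −0.09 ± 0.40, or 0.20 ± 0.24 with the block. At 14 dpp mutants had 2328, 2594, 2066, 2276 and 2192, and wt had 3458, 2416 and 2497, which also overlapped. The other Kif22 probe sets, both dimmer, read −0.16 and 0.39 at 17 dpp, or −0.77 and −0.08 with the block, and neither passed.

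The remaining mitotic kinesins did not pass at 17 dpp in either fit. Kif11, the motor that separates the spindle poles, read −0.15, or −0.34 with the block, and Kif15, which can support it, read −0.27, or −0.05 with the block. Kif18a and Kif18b, which trim microtubule ends, read −0.10 and 0.26, or 0.15 and 0.33 with the block. Kif20a and Kif23, both needed for cytokinesis, read 0.08 and 0.58, or −0.37 and 0.37 with the block. The sign of Kif18a, Kif20a and Kif22 thus turned with the block. Kif4, an X-linked chromosome-bound kinesin, read 0.79, or 0.48 with the block. The untested Kif14, a cytokinesis kinesin, had signals of 6.95 to 24.8 in mutants and 9.48 to 34.9 in wt at 17 dpp. Kif2b, related to Kif2a, had 0.663 to 10.6 in mutants and 3 to 86 in wt at 17 dpp.

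Among transport kinesins, Kif1c, a vesicle motor, had 319 and 344 on set 1 and 956, 1187 and 1225 on set 3 in mutants at 17 dpp. In wt of that age it had 206 on set 1 and 673, 817, 1148 and 691 on set 3. The groups overlapped within set 3, while both set 1 mutant arrays lay above the wt array. Its difference was 0.15 ± 0.44 (limma adjusted p = 0.895) and 0.52 ± 0.17 with the block (adjusted p = 0.0447). Its other 3 probe sets read 0.59, 0.19 and −0.33, or 0.63, −0.15 and −0.45 with the block, and none passed. At 14 dpp it spanned 366 to 491 in mutants and 306 to 382 in wt.

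Kif5b, the widely expressed heavy chain of conventional kinesin, had 527 and 1443 on set 1 and 6053, 6541 and 9649 on set 3 in mutants at 17 dpp. In wt at 17 dpp it had 449 on set 1 and 5779, 7130, 6025 and 5105 on set 3. Mutant and wt arrays overlapped in set 3, and the array sets differed far more than the genotypes. At 14 dpp mutants had 3718, 3910, 3242, 2674 and 3866, and wt had 3750, 4055 and 3181. The genotype difference at 17 dpp was −0.19 ± 0.74, or 0.47 ± 0.22 with the block, and did not pass in either. Of the other 5 Kif5b probe sets 1 passed with the block (0.91, limma adjusted p = 0.0381) and none without it (that one read 1.07, adjusted p = 0.142).

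Kif16b, which positions early endosomes, had 888 and 1250 on set 1 and 2258, 2526 and 2302 on set 3 in mutants at 17 dpp. On the wt arrays of 17 dpp it had 816 on set 1 and 1509, 2134, 2070 and 2308 on set 3. The groups overlapped within set 3, and the difference was 0.04 ± 0.32, or 0.29 ± 0.15 with the block (limma adjusted p = 0.198). At 14 dpp mutants had 879, 1001, 845, 859 and 647, and wt had 751, 883 and 680, which overlapped.

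The other transport kinesins did not pass in either fit. Kif1a and Kif1b, which carry synaptic vesicle precursors and mitochondria in neurons, read 0.37 and 0.47 at 17 dpp, or 0.29 and 0.25 with the block. Another Kif1b probe set passed with the block (0.58, limma adjusted p = 0.0482) and not without it (0.18, adjusted p = 0.885). The rest of the Kif1b probe sets passed in neither. Kif5a and Kif5c, the neuronal heavy chains of conventional kinesin, read 0.27 and 0.59, or 0.05 and 0.43 with the block. Kif13a and Kif13b, vesicle motors, read 0.67 and 0.38, or 0.48 and 0.10 with the block, and Kif3c, a kinesin-2 subunit, read 0.20, or 0.25 with the block. Kif17, which in round spermatids binds the CREM coactivator ACT, read 0.30, or 0.35 with the block.

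Of the other kinesins, Kif21a, which slows microtubule growth, had 2706 and 2562 on set 1 and 3062, 4126 and 3104 on set 3 in mutants at 17 dpp. In wt of that age it had 1955 on set 1 and 1770, 2509, 2582 and 1963 on set 3. The groups did not overlap within a set. Its difference was 0.53 ± 0.23 (limma adjusted p = 0.214) and 0.58 ± 0.14 with the block (adjusted p = 0.00709). The second Kif21a probe set read 0.95, or 0.79 with the block, where it passed (adjusted p = 0.0218), and the third read −0.70, or −0.47 with the block, and passed in neither. At 14 dpp Kif21a spanned 1201 to 2002 in mutants and 1055 to 2057 in wt. Its relative Kif21b read 0.03 at 17 dpp, or 0.02 with the block, and Kif12 read −0.02, or 0.08 with the block. Kif26a and Kif26b, atypical kinesins with little motor activity, read 0.46 and 0.29, or 0.75 and 0.42 with the block. Kif28 was not tested and had 0.57 to 102 in mutants and 1.61 to 20.3 in wt at 17 dpp.

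**Figure D2:**
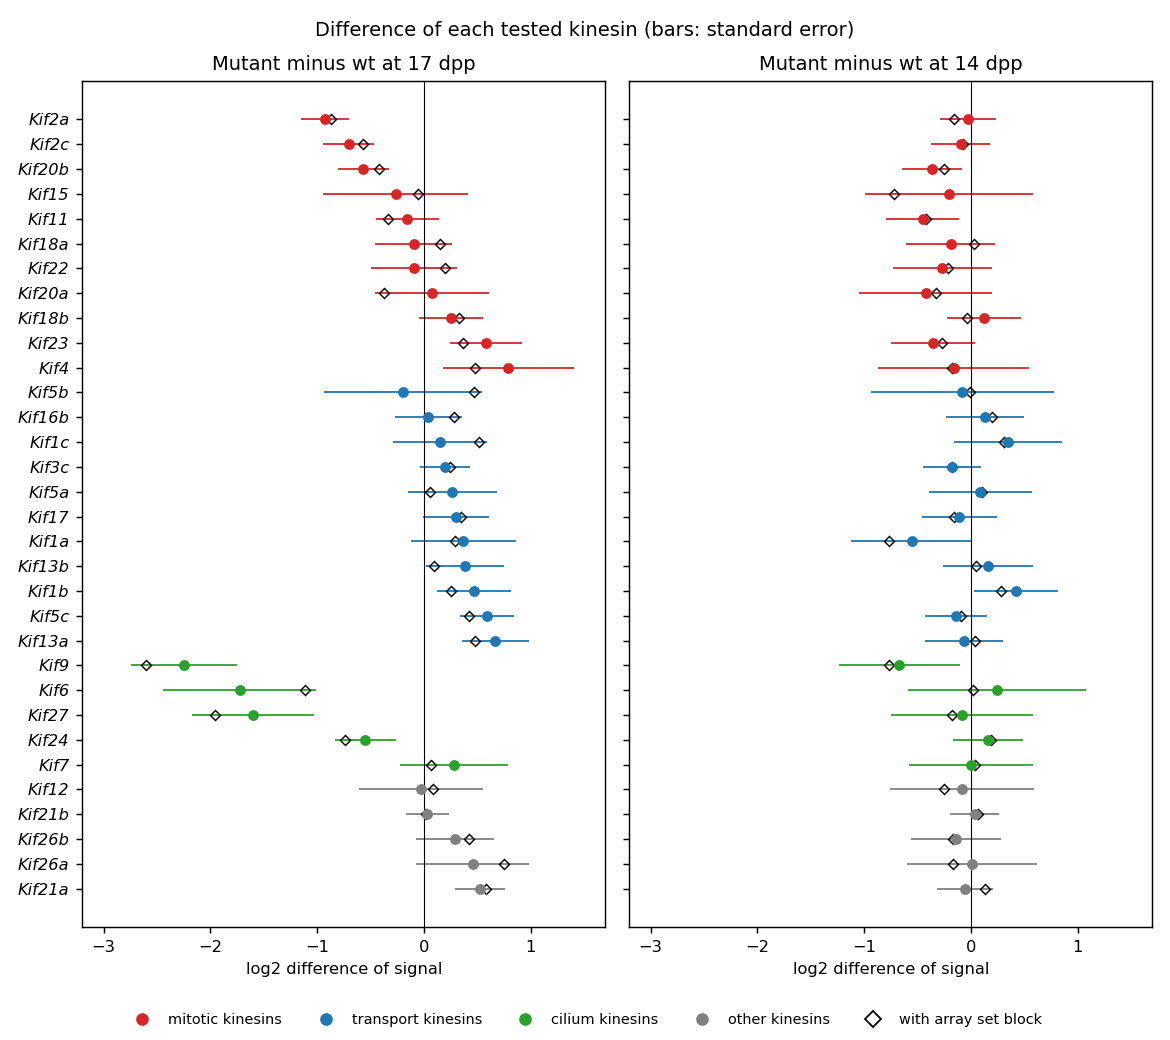
Log2 difference of signal, mutant minus wt, for the 32 tested kinesins at 17 dpp (left) and 14 dpp (right), coloured by class, with bars of 1 standard error and open diamonds for the fit with the array set block. At 17 dpp 4 of 5 cilium kinesins lie below 0 (Kif9 at −2.25) and 10 of 11 transport kinesins lie above 0. At 14 dpp 10 of 11 mitotic kinesins lie below 0.

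Mitotic and transport kinesins were set side by side by counts and medians. At 17 dpp the median difference was −0.10 in the 11 mitotic kinesins, with 7 below 0, and 0.30 in the 11 transport kinesins, with 1 below 0. It was −1.60 in the 5 cilium kinesins. Over all tested probe sets the median was 0.25 and 35.7% were below 0. That overall shift was 0.11 after quantile normalization or after subtraction of each array's median, with mitotic medians of −0.21 and −0.24 and transport medians of 0.13 and 0.16. With the array set block the mitotic median was −0.05, the transport median 0.30 and that of all probe sets 0.24. The transport median therefore lay near that of all probe sets in both fits, and the mitotic median lay below it. The mitotic median was above 0 within set 1 (0.03) and with the mean of each gene's probe sets (0.08), where the transport medians were 0.51 and 0.21. The medians over all features in these settings were 0.24 and 0.26. The mitotic median lay below them in both settings. The transport median lay above within set 1 and below with the mean of probe sets.

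On each array the mean log2 signal of the 11 mitotic kinesins was set against that of the 11 transport kinesins. At 17 dpp the mitotic mean exceeded the transport mean by 0.66, 0.62, 0.45, 0.43 and 0.79 in mutants and by 1.11, 1.004, 1.05, 0.95 and 0.81 in wt. At 14 dpp it did so by 0.47, 0.32, 0.39, 0.40 and 0.40 in mutants and by 0.63, 0.63 and 0.59 in wt. At both ages every mutant array lay below every wt array, at 17 dpp narrowly (0.79 against 0.81). How often other gene groups separate was not worked out, for this difference or for the class means below. The members were chosen with earlier results of these data known, so no test was made of this contrast. At 17 dpp the mitotic means overlapped between genotypes (9.25 to 9.42 in mutants, 9.23 to 9.67 in wt), as did the transport means (8.55 to 8.90 in mutants, 8.28 to 8.63 in wt). At 14 dpp the mitotic means did not overlap (9.30 to 9.45 in mutants, 9.57 to 9.63 in wt).

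**Figure D3:**
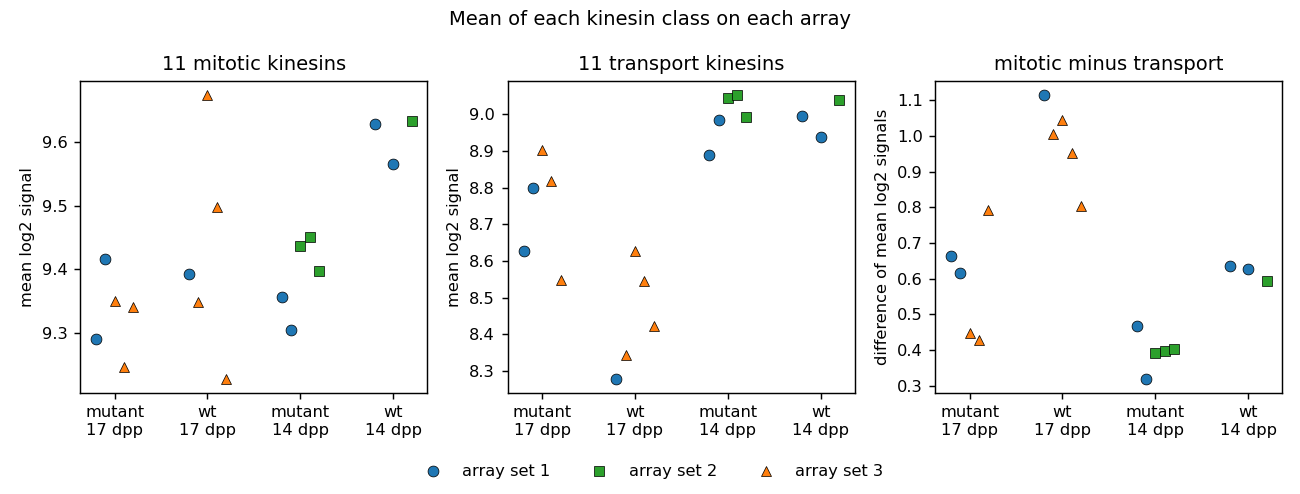
Mean log2 signal of the 11 mitotic kinesins, of the 11 transport kinesins, and their difference, on each of the 18 arrays by group (mutant left of wt, 17 dpp left of 14 dpp), with the array set as point shape and colour. The difference runs from 0.43 to 0.79 in mutants and 0.81 to 1.11 in wt at 17 dpp, and from 0.32 to 0.47 in mutants and 0.59 to 0.63 in wt at 14 dpp.

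At 14 dpp 0 of the 32 kinesins passed, against 0.196% of all probe sets, and 0 passed with the array set block (0.368% of all probe sets). At an unadjusted p under 0.05 the count was also 0 of 32, against 2% of all probe sets. Kif9 and Kif11 were the members whose mutant arrays all lay below the wt arrays, against 3.08% of all probe sets that did so. Kif11 had 411 to 558 in mutants and 587 to 711 in wt, a difference of −0.45 ± 0.34. The other Kif11 probe sets, nearly as bright, read −0.17 and 0.35, or −0.23 and −0.08 with the block, and none passed. Of the mitotic kinesins 10 of 11 had a negative difference, with a median of −0.21, and of the transport kinesins 6 of 11, with a median of −0.07. Over all probe sets 42.7% were negative and the median was 0.06. With array weights 4 kinesins passed at 14 dpp (15.4% of all probe sets), Kif11, Kif20b and Kif23 lower and Kif1b higher.

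The difference between ages in the genotype effect (the interaction) passed for 0 of 32 kinesins, against 0.204% of all probe sets, and for 0 with the block (1.2% of all probe sets). At an unadjusted p under 0.05 it counted 1 of 32, Kif2a, at −0.90 ± 0.35, and 5.61% of all probe sets. For Kif9 it was −1.58 ± 0.76 (limma adjusted p = 0.885) and −1.84 ± 0.46 with the block (adjusted p = 0.0627). Without the set 3 arrays Kif9 passed at −2.39 (adjusted p = 0.0233), as did 1.38% of all probe sets.

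Between 14 and 17 dpp 2 of 32 kinesins passed in mutants (1.92% of all probe sets) and 11 of 32 in wt (21.4% of all probe sets). In mutants Kif21a was higher by 0.97 ± 0.23 at 17 dpp (0.423% of all probe sets were higher) and Kif21b fell by 0.80 (1.5% were lower). The other Kif21a probe sets had geometric means of 1584 and 38.1 in mutants at 14 dpp and 1121.5 and 41.1 at 17 dpp. In wt Kif16b, Kif2a, Kif2c and Kif6 were higher at 17 dpp, as were 4.86% of all probe sets, and Kif11, Kif13a, Kif1a, Kif21b, Kif23, Kif4 and Kif5c were lower, as were 16.5%. The 4 higher genes passed after quantile normalization and after median subtraction too, while 0 of the lower genes did. They did not pass within set 1 or with the block, where their sizes were smaller. Kif6 was higher in wt at 17 dpp by 2.61 over all arrays, 0.45 with the block and 0.05 within set 1. Kif16b was higher by 1.11, 0.06 and 0.0023 in the same 3 fits. For Kif2c the values were 1.03, 0.49 and 0.33, and for Kif2a 0.86, 0.81 and 0.65. Other tested probe sets of these genes did not all rise in wt, by geometric means over all arrays from 14 to 17 dpp. Those of Kif2c went from 571 to 146, 200 to 31.4 and 95.6 to 140, and that of Kif6 from 127 to 69.2. Those of Kif2a went from 1544 to 1225, 742 to 1424 and 302 to 395. Those of Kif16b went from 288 to 480 and 47.0 to 46.3. None of the 7 lower genes passed within set 1 or with the block either. With the block only Kif5b passed in mutants (1.37% of all probe sets), and only Kif5b and Kif9 passed in wt (7.63% of all probe sets, 4.57% lower and 3.06% higher). Kif9 was higher at 17 dpp in wt by 2.38 ± 0.44 with the block (limma adjusted p = 0.00309) and by 2.84 within set 1. Set 2 holds only 14 dpp arrays and set 3 only 17 dpp arrays, so both values lean on set 1. There wt at 17 dpp had 1 array. Over all arrays Kif9 was higher in wt by 0.82 ± 0.57 and did not pass (limma adjusted p = 0.312). In mutants the block difference of Kif9 between ages was 0.55 ± 0.41 (adjusted p = 0.773).

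The age difference of Kif5b passed in 1 of its 6 probe sets. Within set 1 the chosen probe set was lower at 17 than at 14 dpp by 2.13 ± 0.35 in mutants (limma adjusted p = 0.00807; 0.685% of all probe sets passed) and by 3.12 ± 0.43 in wt (adjusted p = 0.00358; 2.18% of all probe sets passed). The other 5 probe sets spanned −1.46 to 0.29 in mutants and −1.06 to 0.04 in wt, and none of them passed.

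Genes that work with these motors were taken from written lists. Of 25 spindle and cytokinesis partners 2 fell at 17 dpp and 0 rose, with a median of −0.22, against 3.86% of all probe sets that were lower and 1.48% that were higher. Prc1, which bundles the microtubules of the central spindle, fell by 1.30 ± 0.26 (limma adjusted p = 0.00371), and Ttk, a spindle checkpoint kinase, fell by 0.85 ± 0.24 (adjusted p = 0.0455). Of 22 transport partners 3 fell and 0 rose, with a median of 0.19. These were Mapk8ip2, a scaffold that binds kinesin light chains (−2.17 ± 0.43, adjusted p = 0.00335), Kifap3, the accessory subunit of kinesin-2 (−1.09 ± 0.27, adjusted p = 0.0208), and Dync1i2, an intermediate chain of cytoplasmic dynein (−0.94 ± 0.25, adjusted p = 0.0283). With the block 7 spindle partners fell and 2 rose, and 5 transport partners fell and 1 rose, against 8.05% of all probe sets lower and 10.8% higher. At 14 dpp none of either list passed.

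Markers of cell types were read beside the kinesins, with the same shares of all probe sets as background. Of 9 pachytene spermatocyte markers 8 fell, with a median of −5.66 (9 fell with the block), and their summed signal was 1832 to 3473 in mutants and 67095 to 153090 in wt. At 14 dpp 7 of the 9 fell, and the sum was 1492 to 2344 in mutants and 12002 to 17866 in wt. At 17 dpp 0 of 9 Sertoli cell markers passed (median 0.69, sum 48112 to 87121 in mutants and 34967 to 65443 in wt), and 0 of 10 spermatogonial markers passed (median 0.96, sum 8430 to 21395 in mutants and 3969 to 12974 in wt). Of 5 macrophage markers Csf1r rose (median 1.21, sum 4413 to 7059 in mutants and 1593 to 3877 in wt). None passed among 4 Leydig cell, 4 peritubular myoid, 4 endothelial and 5 round spermatid markers, whose medians were 1.004, 0.68, 0.41 and −0.01. With the array set block more markers passed, and apart from the pachytene markers those that passed were higher in mutants. They were 4 of 9 Sertoli cell, 4 of 10 spermatogonial, 3 of 5 macrophage, 1 of 4 peritubular myoid and 1 of 5 round spermatid markers, and 0 of the 4 Leydig cell and 0 of the 4 endothelial markers. The block medians were 0.60 in Sertoli cell, 0.79 in spermatogonial, 0.96 in macrophage, 0.34 in peritubular myoid and 0.24 in round spermatid markers, against 0.24 over all probe sets. The round spermatid marker was Prm2, at 1.33 (limma adjusted p = 0.0349), against 0.86 without the block (adjusted p = 0.626). Its geometric mean at 17 dpp was 72.4 in mutants and 39.9 in wt, near or below the arrays' 40th percentiles (49.2 to 93.4). At 14 dpp it was 126 in mutants and 69.0 in wt. No marker was listed at 0 on any array. The part of these cell types in the kinesin differences was not tested.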

How the data were processed

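Per the labels, biotinylated cRNA from whole testis was hybridised to Affymetrix arrays. Per the submitters' processing notes the tool was MAS5 (version not given in the sources used here), and the authors deposited its linear signal intensity for 45101 probe sets. Nothing further was normalized in the main model. Without the 64 controls, 34764 probe sets exceeded their array's 40th percentile (49.2 to 93.4 in signal) on at least 3 arrays and were tested.

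The main model, in limma 3.58.1 (R 4.3.3), had 4 group means of log2 signal over 18 arrays and 14 residual degrees of freedom, and used moderated variances with a trend on signal. P-values were two-sided and Benjamini-Hochberg adjusted over all 34764 probe sets, with calls at 0.05. The block fit added array set as a fixed term (12 degrees of freedom). The within-set fit had a mean for each group in each set and 1 shared spread (10 degrees of freedom), which a lone array borrows. The fit was tested on simulated data: of 200 changed probe sets, those changed by 2 on the log2 scale at 17 dpp were recovered in 46% and those changed by 1 in 0%. The simulation had no array sets and changed fewer probe sets than the 1854 called at 17 dpp. These shares therefore do not give the power in the data themselves.

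The members, classes, lists and tests were chosen with earlier results of these data known. Per-array signals are given for members called at 17 dpp, at 14 dpp or in the interaction, and for the 2 brightest uncalled mitotic and transport kinesins. They are also given for further members that passed at 17 dpp with the array set block, a choice made after their values were seen. Partner genes named are those called at 17 dpp. Alternatives were other normalizations, filters, a pseudocount of 16, array sets, array weights, a replicate block, probe set averaging, unmoderated tests, a threshold of 0.025 and leaving out each array. Same-numbered mutant and wt arrays correlated at 0.283 to 0.385 at 14 dpp and −0.227 to 0.777 at 17 dpp in their deviations from group means. The main model did not treat them as pairs at either age. At 17 dpp the value of 0.777 came from arrays both in set 1, and −0.227 from a set 1 and a set 3 array. Pairing and array set cannot be told apart in these values. At 14 dpp each such pair lay within 1 array set. Promoters came from RefSeq (GRCm38.p6).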

Additional observations from a re-analysis of the deposited data

Results flagged for a closer look

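In 8 of 96 groups of 5 arrays, over the tested kinesins, 1 array stood apart from the other 4 by Dixon's 95% criterion, which chance meets in about 1 in 20 groups. Of these 5 were in wt at 17 dpp, and 4 of the 5 were replicate 1, the only set 1 array of that group. On that array Kif13b was at 630.6, above the others, while Kif18a at 407.4, Kif5b at 448.7 and Kif6 at 86.7 were below the others. Kif4 was lowest on wt replicate 5 of 17 dpp, at 20.77. Kif7 was lowest on mutant replicate 5 of 17 dpp, at 47.0. Among mutants at 14 dpp, Kif17 was highest on replicate 4, at 318.8, and Kif21b was highest on replicate 2, at 685.1.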

How the results depend on the processing

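Kif9 at 17 dpp kept its sign in all 32 alternatives and its call in 31, the exception being the fit of the 17 dpp arrays alone (adjusted p = 0.0931). Kif2a kept its sign in all 32 and its call in 25. Many of these settings cannot move a 17 dpp difference. Leaving out a 14 dpp array, or changing the filter, moderation or threshold, alters only the p-value or the call, so the sign was fixed there. The number of kinesins called at 17 dpp was 9 with the array set block (18.8% of all probe sets), 6 within set 3 (11.5%), 1 within set 1 (2.85%), 0 with arrays of that age only (2.48%), and 1 of 29 with the mean of a gene's probe sets (8.89% of genes). Leaving out single arrays gave 1 (without wt replicate 3 or 5 of 17 dpp, 4.23% and 3.47% of all) to 4 (without wt replicate 1 of 17 dpp, 11.4%). With the replicate number as a block 4 were called at 17 dpp (10.4% of all; Kif21a higher, Kif2a, Kif2c and Kif9 lower) and 0 at 14 dpp, though at 17 dpp the numbers are not shown to pair arrays. At 14 dpp array weights gave 4 (15.4% of all), and leaving out single arrays gave 0 each time. For the interaction 1 was called without the set 3 arrays (1.38% of all) and 1 with array weights (1.19%), and 0 on leaving out any single array.

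For age the share of all features called under the same setting follows each count. In mutants 1 was called after quantile normalization (2.8%), 0 without the filter (0.997%), 1 with the array set block (1.37%), 1 within set 1 (0.685%), 15 with array weights (35.9%), 0 with the mean of probe sets (3.47%) and 0 at 0.025 (0.575%). Leaving out single arrays gave 0 to 6, with 6 without mutant replicate 1 of 17 dpp (20%). In wt 4 were called after quantile normalization (14.6%), 4 after median subtraction (10.7%), 2 with the array set block (7.63%), 4 without set 3 (10.5%), 2 within set 1 (2.18%), 20 with array weights (50.6%), 4 with the mean of probe sets (31.7%) and 4 at 0.025 (11.5%). Leaving out single arrays gave 0 (without wt replicate 1 of 14 dpp, 3.7%, or replicate 5 of 17 dpp, 9.73%) to 16 (without wt replicate 1 of 17 dpp, 35.9%). The cause of these changes was not tested.

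Leaving out single arrays moved the mitotic median between −0.34 and −0.18 at 14 dpp and between −0.39 and 0.0055 at 17 dpp, and the transport median between −0.11 and 0.03 at 14 dpp and between 0.18 and 0.42 at 17 dpp. The transport median at 14 dpp was 0.0955 within set 1 and 0.108 with the mean of probe sets. Of the 30 uncalled kinesins at 17 dpp 16 changed sign under at least 1 alternative and 14 under none, and at 14 dpp 24 of 32 did. Kif20a (−0.81 to 0.60), Kif18a (−0.41 to 0.55) and Kif5b (−0.94 to 0.96) were among the 16. So were Kif20b (0.29 with the mean of probe sets), Kif1c (−0.0312 after quantile normalization, −0.24 to 0.43 on leaving out arrays) and Kif22 (0.20 with the block and within set 3, 0.21 without set 3 and within set 1, 0.0493 with the mean of probe sets, −0.40 to 0.22 on leaving out arrays). For Kif5b between ages the value was 0.19, 0.51 and 0.39 in mutants, and 0.32, 0.51 and 0.0874 in wt, after median subtraction, with array weights and with the mean of probe sets. On leaving out arrays it ran from −0.56 to 0.49 in mutants and −0.29 to 0.71 in wt. Changes of 1 on the log2 scale were not recovered in simulation, though its setting differed from the data, where Kif2a was called at −0.93. Small differences may go unseen.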
